A study of Mus musculus with 119 samples.

Results

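The genes described here are *Ccl2*, *Ccl7*, *Ccl3*, *Ccl4*, *Ccl6* and *Ccl9*, 6 CC chemokine genes that lie on mouse chromosome 11. They were taken by gene symbol from the normalised RNA-seq table, in which they are 6 of 18098 rows, and 13 other CC chemokine genes also have a row. The libraries came from bone marrow-derived macrophages (BMDMs) of C57BL/6(NIMR) mice, grown in L-cell conditioned medium, kept overnight in 1% serum, and harvested without a stimulus or after LPS at 100 ng/ml, a bacterial cell wall component that activates TLR4. WT cells gave 22 libraries (6 without LPS, 6 after 0.5 h, 6 after 1 h and 4 after 2 h). *Map3k8*[D270A] cells, whose TPL-2 kinase is catalytically inactive, gave 24 (6 at each of the same times). *Elk1*-/-*Elk4*-/- cells, which lack 2 ternary complex transcription factors, gave 16 (4 at each time). *Nfkb1*[SS/AA] cells, in which p105 lacks the serines that IKK phosphorylates, gave 18 (6 each at 0, 0.5 and 1 h). WT cells given 0.1 µM PD0325901, an inhibitor of MKK1/2, gave 21: 3 each after 10, 40 and 70 min of inhibitor alone, and 6 each after 10 min of inhibitor and then 0.5 or 1 h of LPS. A further 3 libraries came from WT cells after 10 min of DMSO, the solvent. WT cells given 2 µM RSKi47, an inhibitor of the kinase RSK, gave 15: 4 after 10 min of inhibitor without LPS, and 3, 4 and 4 when LPS followed for 0.5, 1 and 2 h. The series compared these arms to follow the TPL-2 pathway from NF-κB1 p105 through MKK1/2 and ERK1/2 to RSK and the ternary complex factors.

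CC chemokines are small secreted proteins that bind G protein-coupled receptors and direct leukocytes towards a site of injury or infection. *Ccl2* (MCP-1) and *Ccl7* (MCP-3) encode ligands of CCR2, which draws monocytes out of the bone marrow and into tissue. *Ccl3* (MIP-1α) and *Ccl4* (MIP-1β) encode chemokines that attract monocytes and T cells, and CCL3 acts on CCR1. *Ccl6* and *Ccl9* (MIP-1γ) encode CCR1 ligands of rodents that macrophages and other myeloid cells make without an inflammatory stimulus. In macrophages, TLR4 induces inflammatory chemokine genes through NF-κB and MAP kinase pathways. The level of an mRNA does not measure secreted chemokine, and in bulk RNA a gene that falls in every cell cannot be told apart from a gene made by fewer cells.

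In the mm10 genome (RefSeq, GRCm38.p6) the genes form 2 groups on chromosome 11. *Ccl2* (82035577 to 82037452) and *Ccl7* (82045712 to 82047525) lie on the plus strand, 8.3 kb apart. *Ccl9* (83572917 to 83578636), *Ccl6* (83587886 to 83593087) and *Ccl3* (83647843 to 83649378) lie on the minus strand 1525.4 kb further along. The gap between *Ccl9* and *Ccl6* is 9.2 kb, and that between *Ccl6* and *Ccl3* is 54.8 kb. The RefSeq record of *Ccl4* (83648624 to 83664683, plus strand) overlaps that of *Ccl3* by 0.8 kb on the opposite strand. The libraries keep strand, but whether the reads were counted by strand could not be learned from the labels or methods. A *Ccl3* read in the overlap could have been counted for *Ccl4* or the reverse. No 50-base stretch of the coding transcripts of *Ccl2*, *Ccl7*, *Ccl3*, *Ccl4* or *Ccl6* was found in a transcript of another gene, whereas 59 of 2957 stretches of *Ccl9* were.

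The RefSeq promoter table (GRCm38.p6) held 3 of the 6 genes, *Ccl9*, *Ccl3* and *Ccl6*. They are shown because LPS raised *Ccl9* and *Ccl3* and was not found to change *Ccl6*. Each sequence runs 5′ to 3′ on the minus strand from 250 bases before the annotated start to 50 bases after it. Capitals mark matches, on either strand, to an NF-κB motif, an AP-1 motif (TGANTCA), a C/EBP motif (TTGCNNAA), a CArG box (the site of SRF, with which ternary complex factors bind), a PU.1 box (GAGGAA) or a TATA box (TATAAA).
Ccl9, chr11:83578587-83578886: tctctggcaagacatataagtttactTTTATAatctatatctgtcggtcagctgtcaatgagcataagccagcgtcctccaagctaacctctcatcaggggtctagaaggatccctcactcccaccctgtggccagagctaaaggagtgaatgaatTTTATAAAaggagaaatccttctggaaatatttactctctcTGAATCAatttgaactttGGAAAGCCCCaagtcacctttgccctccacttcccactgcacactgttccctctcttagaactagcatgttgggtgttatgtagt
Ccl3, chr11:83649329-83649628: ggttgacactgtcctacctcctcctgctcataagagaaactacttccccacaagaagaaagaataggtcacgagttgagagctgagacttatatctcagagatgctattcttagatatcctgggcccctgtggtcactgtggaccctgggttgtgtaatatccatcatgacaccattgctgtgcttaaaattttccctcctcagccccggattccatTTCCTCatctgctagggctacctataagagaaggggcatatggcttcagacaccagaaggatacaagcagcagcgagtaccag
Ccl6, chr11:83593038-83593337: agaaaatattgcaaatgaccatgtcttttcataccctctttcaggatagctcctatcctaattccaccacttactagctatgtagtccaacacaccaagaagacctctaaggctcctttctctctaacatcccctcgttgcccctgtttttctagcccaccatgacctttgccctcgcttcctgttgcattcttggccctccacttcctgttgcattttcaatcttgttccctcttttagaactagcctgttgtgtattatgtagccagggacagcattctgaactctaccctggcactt

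The *Ccl9* window held an NF-κB match 35 bases and an AP-1 match 53 bases before the start, and 3 TATA box matches, the last pair of which overlap. Among all 32851 promoter windows of this length, 8.46% held the NF-κB motif, 7.81% the AP-1 motif and 13.6% the TATA box. The *Ccl3* window held 1 PU.1 box match, 33 bases before the start, a motif found in 28.3% of all windows. The *Ccl6* window held no match, and none of the 3 windows held a C/EBP motif (10.8% of all windows) or a CArG box (1.63%). Without gaps, the longest similar stretch of the *Ccl6* and *Ccl9* windows was 40 bases, of which 36 were identical. It began 25 bases before the *Ccl6* start and 9 bases after the *Ccl9* start. These matches describe letters in the window and were not tested as binding sites.

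All values are log2 levels as deposited, after RSEM and DESeq2 processing by the submitters. The transformation was not named, the differences may be drawn together at low levels, and the table does not hold the sequencing depth of each library. The median gene of a library lay between 7.01 and 7.22 and no pair of libraries was identical. *Elk1* lay at 9.07 to 9.22 in unstimulated WT cells and 6.22 to 6.59 in *Elk1*-/-*Elk4*-/- cells, and *Elk4* at 7.57 to 7.80 and 5.54 to 5.88. The point mutations cannot be checked by mRNA level. Macrophage markers were high throughout (*Lyz2* 17.47 to 18.70, *Csf1r* 14.81 to 15.51), and the T cell marker *Cd3e* lay at or below -1.41. The summed level of the neutrophil and myeloid precursor list, of which *Mpo*, *Elane*, *Prtn3* and *Ly6g* were below a linear value of 10 in every library, was 10.05 to 11.05 in *Elk1*-/-*Elk4*-/- libraries and 6.33 to 7.78 in WT libraries. The RSKi47 libraries of replicate 4 stood below the other RSKi47 libraries for most of the 6 genes. The 22 untreated WT libraries serve as the control of every other arm, so the comparisons below share them. The labels do not say which libraries were made in 1 experiment, so arm and experiment cannot be told apart. The study's methods call the libraries biological replicates, but labels do not tie them to separate mice, so the p-values measure the spread between libraries, which may be technical.

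Unstimulated WT macrophages already held high levels of all 6 mRNAs. Per kilobase of the longest coding transcript, the mean log2 level was 13.38 for *Ccl9*, 12.85 for *Ccl6*, 12.08 for *Ccl4*, 11.95 for *Ccl2*, 11.55 for *Ccl3* and 10.72 for *Ccl7*. After 2 h of LPS the order was *Ccl4* 16.01, *Ccl3* 15.16, *Ccl9* 14.94, *Ccl2* 14.72, *Ccl7* 14.03 and *Ccl6* 12.88. *Ccl6* thus moved from the second to the lowest place with its own level almost the same. Without division by length *Ccl9* (16.53) stood above *Ccl4* (15.41) at 2 h, so the order of these genes depends on the lengths taken.

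LPS raised 4 of the 6 genes in WT cells at 0.5 h and 5 of 6 at 1 and 2 h, with no member lower. Among the 11884 genes tested, 7.82%, 23.8% and 34.7% were higher at these times. The median difference of the 6 genes was 0.84, 2.47 and 3.05, and that of all genes tested was -0.00427, 1.85e-04 and -0.0180. *Ccl3*, *Ccl4*, *Ccl2* and *Ccl7* rose at every time, *Ccl9* was called from 1 h, and *Ccl6* at no time.

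*Ccl3* lay at 11.07 to 11.29 (median 11.16) in the 6 unstimulated WT libraries, at 12.54 to 13.02 (12.74) at 0.5 h and at 14.07 to 14.61 (14.40) at 1 h. At 2 h the 4 libraries held 14.71, 14.71, 14.81 and 14.86. The ranges of consecutive times did not overlap. The difference from unstimulated cells was 1.61 ± 0.09 (SE, adjusted p = 7.19e-21) at 0.5 h, 3.19 ± 0.09 (3.93e-35) at 1 h and 3.61 ± 0.10 (1.29e-35) at 2 h.

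*Ccl4* lay at 11.33 to 11.76 (median 11.45) without LPS, 12.38 to 13.24 (12.73) at 0.5 h and 14.29 to 14.70 (14.53) at 1 h. Its 2 h libraries held 15.31, 15.40, 15.45 and 15.50. It went on rising after 1 h, and no library of one time overlapped the next. The differences were 1.29 ± 0.08 (adjusted p = 8.44e-19), 3.01 ± 0.08 (4.22e-36) and 3.93 ± 0.09 (2.11e-39), the last being the largest of the 6 genes and a 15.2-fold rise on the deposited scale.

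The CCR2 ligand genes also rose at each time. *Ccl2* lay at 11.44 to 11.88 (median 11.60) without LPS, 12.08 to 12.89 (12.36) at 0.5 h and 13.87 to 14.21 (14.13) at 1 h, and its 2 h libraries held 14.24, 14.29, 14.42 and 14.75. Unstimulated and stimulated ranges did not overlap at any time. At 0.5 h the WT libraries of replicates 4 to 6 (12.08 to 12.16) lay below those of replicates 7 to 9 (12.56 to 12.89), a split that is as wide as much of the response at that time. The differences were 0.80 ± 0.11 (adjusted p = 6.86e-08), 2.46 ± 0.11 (2.97e-27) and 2.78 ± 0.12 (8.58e-28).

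*Ccl7* lay at 10.21 to 10.65 (median 10.34), 10.91 to 11.74 (11.20) and 12.70 to 12.98 (12.91) at 0, 0.5 and 1 h, and at 13.50, 13.51, 13.70 and 14.13 at 2 h. Consecutive times did not overlap. It rose by 0.88 ± 0.12 (adjusted p = 8.15e-08), 2.48 ± 0.12 (2.48e-25) and 3.31 ± 0.13 (3.68e-29), a 9.93-fold rise at 2 h against 6.86-fold for *Ccl2*.

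*Ccl9* began high and rose by less. Its levels were 14.79 to 15.21 (median 14.97) without LPS, 14.96 to 15.55 (15.10) at 0.5 h and 15.79 to 16.29 (16.03) at 1 h, and 16.29, 16.48, 16.60 and 16.75 at 2 h. The 0.5 h range overlapped the unstimulated one, and the later ranges did not. The differences were 1.07 ± 0.08 (adjusted p = 2.83e-17) at 1 h and 1.56 ± 0.09 (2.25e-22) at 2 h. At 0.5 h the difference was 0.22 ± 0.08 (adjusted p = 0.0663). All 6 same-numbered WT pairs rose at that time, by 0.02 to 0.34, and with the replicate number as a block the adjusted p was 0.00222.

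*Ccl6* was not called changed by LPS in any arm, with all arms of an analysis fitted together. With only the compared groups in the fit, its difference of 0.26 at 1 h in PD0325901-treated cells was called (adjusted p = 0.0376). WT libraries held 13.06 to 13.80 (median 13.29) without LPS, 12.99 to 13.73 (13.12) at 0.5 h and 13.06 to 13.93 (13.22) at 1 h, and 13.11, 13.18, 13.51 and 13.83 at 2 h. The ranges overlapped almost fully. The difference at 1 h was -0.01, with a 95% interval of -0.30 to 0.28, and that at 2 h was 0.03 (-0.29 to 0.36), so a rise of the size seen in the other 5 genes at 2 h lies outside the interval. Between replicates *Ccl6* spread more than the other members in unstimulated WT cells (SD 0.29). The change from 0 h within a replicate number spread less, with a WT SD of 0.10, 0.11 and 0.17 after 0.5, 1 and 2 h. In *Map3k8*[D270A] cells the SD was 0.25 at rest and 0.04 to 0.11 for the change. The *Ccl6* change was small but of 1 sign in all 6 *Map3k8*[D270A] replicates at 0.5 h (-0.14 to -0.03) and all 6 *Nfkb1*[SS/AA] replicates at 1 h (0.02 to 0.25, mean 0.09). It was also of 1 sign in all 4 *Elk1*-/-*Elk4*-/- replicates at 2 h (0.02 to 0.21) and in every RSKi47 replicate paired by number, down in 3 of 3 at 0.5 h (-0.10 to -0.05) and up in 4 of 4 at 1 h (0.04 to 0.09) and 2 h (0.05 to 0.13). With the arm and replicate number as a block none of these 6 changes was called (adjusted p = 0.36 to 0.995). That block takes 1 correlation for all genes (0.361 or 0.318, by fit), while *Ccl6* spread far less within a number than between numbers. It therefore cannot decide changes of this size.

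**Figure D1:**
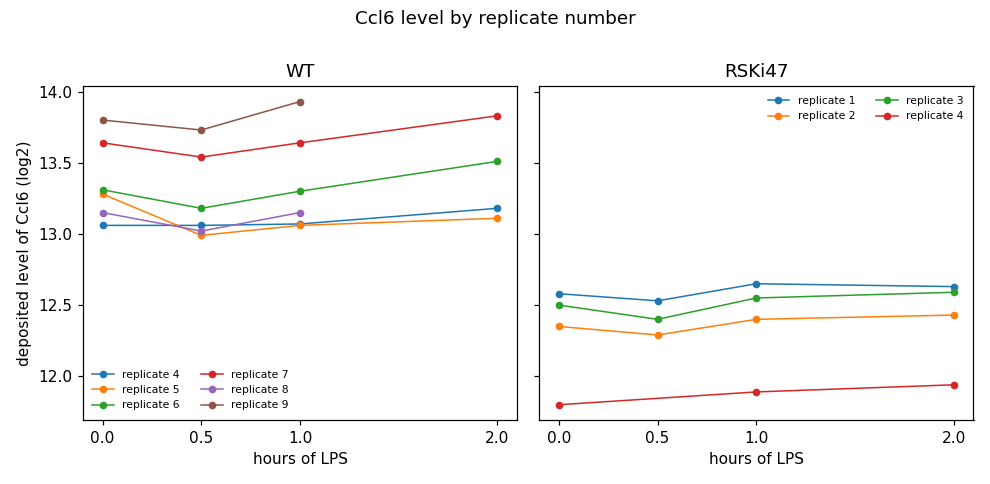
Deposited log2 level of *Ccl6* (y axis) against hours of LPS (x axis), with a panel for WT and a panel for RSKi47 cells and a line joining the libraries of each replicate number. The RSKi47 lines lie below the WT lines, and the change from 0 h within a replicate number has an SD of 0.10 to 0.17 in WT and 0.02 to 0.04 in RSKi47 cells, against 0.29 and 0.35 between replicates without LPS.

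*Map3k8*[D270A] macrophages also raised the 4 inflammatory genes at every time and *Ccl9* at 1 and 2 h. At 0.5 h *Ccl9* was higher in all 6 same-numbered mutant pairs (0.12 to 0.16, mean 0.14) without being called (adjusted p = 0.552, and 0.122 with a replicate block). Within the mutant, 4, 5 and 5 of the 6 genes were higher at 0.5, 1 and 2 h, against 3.91%, 21.8% and 34.9% of all genes tested. The size of the rise was 1.16, 2.72 and 3.09 for *Ccl3*, 0.88, 2.81 and 3.63 for *Ccl4*, 0.56, 1.91 and 2.04 for *Ccl2* and 0.61, 1.92 and 2.51 for *Ccl7*. Each of these 12 rises passed the test, and each was numerically smaller than its WT counterpart.

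Without LPS none of the 6 genes was called different between *Map3k8*[D270A] and WT cells, where 0.833% of genes tested were lower and 0.606% higher. The largest difference was that of *Ccl2*, at 0.29 (adjusted p = 0.205). With the replicate number alone as a fixed block *Ccl2* (0.40), *Ccl7* (0.39), *Ccl6* (0.39) and *Ccl9* (0.16) were called higher, and *Ccl6* was called higher at 0.5 h (0.43) and 1 h (0.38) as well. Here and below, this block joins equal numbers of different arms, though no label ties them to each other. At 0.5 h *Ccl3* (12.34 to 12.58, median 12.42, in the mutant) and *Ccl4* (12.20 to 12.46, median 12.33) were lower than in WT cells, 2 of 6 members against 0.892% of genes. Both mutant ranges overlapped the WT range at their edge. The differences were -0.35 ± 0.09 (adjusted p = 0.0393) and -0.44 ± 0.08 (6.16e-04). The *Ccl3* call was lost when any of 7 replicates was left out, with adjusted p up to 0.165 (without WT replicate 8). Here and below, leaving out a replicate removes the libraries of that number at all times in its arm. The *Ccl4* call was lost with only the compared groups in the fit (adjusted p = 0.16). Between WT replicates 4 to 6 and mutant replicates 1 to 3 *Ccl4* differed by -0.23 (adjusted p = 0.0794) and *Ccl3* by -0.19 (0.12), and between the remaining replicates by -0.65 and -0.51, both called. These subsets, used below as well, follow the order of the numbers, and no label ties their WT and mutant replicates to each other.

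At 1 h only *Ccl3* was called lower, with mutant libraries at 13.76 to 14.20 (median 14.02) and a difference of -0.36 ± 0.09 (adjusted p = 0.00607), 1 of 6 members against 4.64% of genes. The values for *Ccl2* (-0.26, adjusted p = 0.114), *Ccl7* (-0.32, 0.0821) and *Ccl4* (-0.23, 0.0653) had the same sign and did not pass. With only the compared groups in the fit *Ccl3* was not called (adjusted p = 0.0756), while *Ccl2* (0.0258) and *Ccl7* (0.0118) were. The lower level of *Ccl3* at 1 h was -0.51 between WT replicates 4 to 6 and mutant replicates 1 to 3, and -0.22 (adjusted p = 0.0939) between the remaining replicates. In the first of these subsets *Ccl7* (-0.43), *Ccl2* (-0.38) and *Ccl4* (-0.31) were called lower as well.

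At 2 h 5 of the 6 genes were lower in *Map3k8*[D270A] cells, against 13.1% of all genes tested, and *Ccl6* was not called (0.10, adjusted p = 0.715). *Ccl7* held 12.95 to 13.23 (median 13.20) in the 6 mutant libraries and was lowered most, by -0.56 ± 0.13 (adjusted p = 9.75e-04). *Ccl2* held 13.78 to 14.13 (median 14.01), with a difference of -0.45 ± 0.12 (0.00335). *Ccl3* held 13.98 to 14.70 (median 14.41; -0.40 ± 0.10, 0.00235) and *Ccl4* 14.95 to 15.24 (median 15.09; -0.33 ± 0.09, 0.00624). For these 4 genes no mutant library reached the lowest of the 4 WT libraries. With only the compared groups in the fit the *Ccl3* call was lost (adjusted p = 0.102). *Ccl9* held 16.11 to 16.38 (median 16.21), overlapping WT, with a difference of -0.31 ± 0.09 (adjusted p = 0.00735). Without WT replicate 7 the *Ccl9* difference was -0.23 (adjusted p = 0.0664). The summed macrophage list stood at 18.68 to 18.87 in the mutant and 18.87 to 19.01 in WT libraries at 2 h, and the dendritic cell list at 5.31 to 5.88 and 5.86 to 6.15. The part of either was not tested.

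WT replicate 7 was the highest of the 4 WT libraries at 2 h for *Ccl2*, *Ccl7*, *Ccl4*, *Ccl6* and *Ccl9*, and shared the lowest *Ccl3* value. Between WT replicates 4 to 6 and mutant replicates 1 to 3, the 2 h differences were -0.19 for *Ccl2* (adjusted p = 0.125), -0.36 for *Ccl7* (0.0298), -0.13 for *Ccl3* (0.0875), -0.19 for *Ccl4* (0.0243) and -0.29 for *Ccl9* (3.99e-04), so 3 of the 5 calls remained. With WT replicate 7 alone against mutant replicates 4 to 6 they were -0.92, -1.04, -0.63, -0.52 and -0.47. All 5 genes kept their sign in both subsets.

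The response itself, the rise over unstimulated cells of the same genotype, was compared by an interaction term. At 2 h it was smaller in the mutant for *Ccl7* (-0.80 ± 0.18, adjusted p = 8.11e-04), *Ccl2* (-0.73 ± 0.16, 6.56e-04), *Ccl3* (-0.51 ± 0.14, 0.00711) and *Ccl9* (-0.37 ± 0.12, 0.0268), 4 of 6 members against 8.6% of genes. *Ccl4* did not pass (-0.30, adjusted p = 0.106) but did with a replicate block (0.0237), and the *Ccl9* call was lost without WT replicate 4, 6, 7 or 8 or mutant replicate 1, with adjusted p of 0.0501 to 0.0937, and with only the compared groups in the fit (0.0531). At 1 h *Ccl2* (-0.55 ± 0.15, adjusted p = 0.0357) and *Ccl3* (-0.47 ± 0.13, 0.0413) passed, against 1.3% of genes. Each lost its call when any of 8 (*Ccl2*) or 7 (*Ccl3*) replicates was left out, with adjusted p up to 0.143 and 0.167 (without WT replicates 4 and 5), and with no filter on low values (0.0571 and 0.0634). *Ccl7* at 1 h (-0.56) passed with that block (adjusted p = 0.00268) and with only the compared groups in the fit (0.00316), where *Ccl3* did not (0.0685). Between WT replicates 4 to 6 and mutant replicates 1 to 3 the 1 h values were -0.79 for *Ccl2* and -0.72 for *Ccl3*, and between the remaining replicates -0.32 (adjusted p = 0.912) and -0.22 (0.741). At 0.5 h no member passed limma's test, 0.109% of genes had a smaller and 0% a larger response, and 249 genes had an unadjusted p under 0.05. With a replicate block *Ccl3* passed at that time (-0.46, adjusted p = 0.0424).

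**Figure D2:**
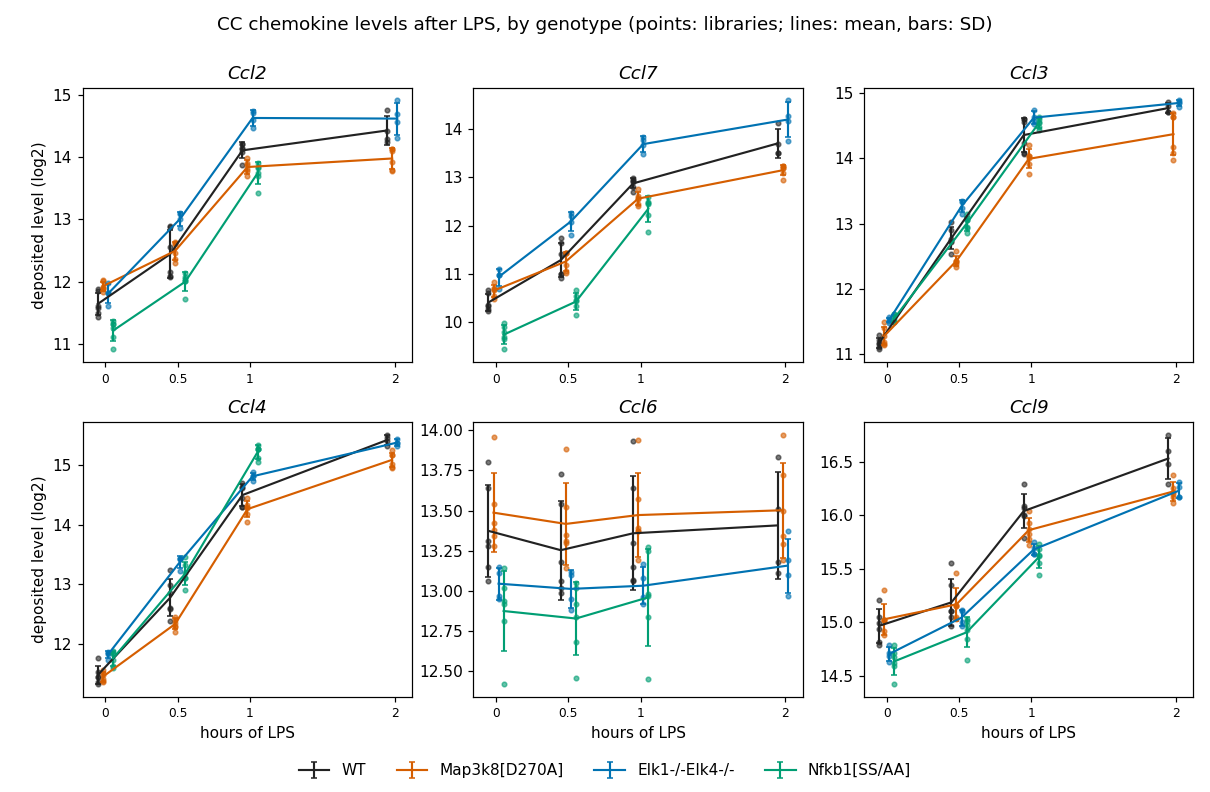
Deposited log2 level (y axis) of each gene against hours of LPS (x axis) in WT, *Map3k8*[D270A], *Elk1*-/-*Elk4*-/- and *Nfkb1*[SS/AA] cells; points are libraries, lines join group means and bars are SD. At 2 h the *Map3k8*[D270A] libraries of *Ccl2* lie at 13.78 to 14.13 and the WT libraries at 14.24 to 14.75, while *Ccl6* was not called changed by LPS in any genotype.

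Loss of ELK1 and ELK4 went with higher, not lower, levels of 4 of these genes. The libraries of this arm are also those with the high neutrophil and myeloid precursor sum given above, where 6 of the 6 tested list genes were higher than in WT cells at each time, and its part in the results was not tested. The summed macrophage list was lower than in WT libraries without overlap at each time (18.38 to 18.46 against 18.62 to 18.81 without LPS), and its part was not tested either. In the mutant, 5 of the 6 genes rose with LPS at each time, against 3.22%, 16.6% and 35.2% of genes tested at 0.5, 1 and 2 h. The early rise of *Ccl9* in the mutant (0.34 ± 0.10, adjusted p = 0.0277) was lost without any 1 of its 4 replicates, with adjusted p of 0.0922 to 0.194, and with median centring (0.053).

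*Ccl7*, next to *Ccl2*, was higher in *Elk1*-/-*Elk4*-/- cells at all 4 times. The mutant libraries held 10.96, 11.10, 10.97 and 10.68 without LPS, 12.08, 12.20, 12.26 and 11.80 at 0.5 h, 13.67, 13.78, 13.85 and 13.48 at 1 h, and 14.18, 14.29, 14.61 and 13.75 at 2 h. Each lay above every WT library at 0, 0.5 and 1 h, and the ranges overlapped at 2 h through mutant replicate 4 and WT replicate 7. The differences were 0.53 ± 0.13 (adjusted p = 7.79e-04), 0.81 ± 0.13 (2.34e-06), 0.82 ± 0.13 (1.01e-06) and 0.50 ± 0.15 (0.00373). The 2 h call was lost with only the compared groups in the fit (adjusted p = 0.0557).

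*Ccl2* was higher at 0.5 h (0.57 ± 0.12, adjusted p = 1.28e-04) and 1 h (0.52 ± 0.12, 2.74e-04). At 1 h the mutant held 14.60, 14.71, 14.73 and 14.46, above all 6 WT libraries. Its differences of 0.16 at 0 h and 0.19 at 2 h did not pass, and with the replicate number alone as a fixed block the first was called (0.27, adjusted p = 0.0369).

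*Ccl4* and *Ccl3* were higher in the mutant at 0, 0.5 and 1 h. *Ccl4* held 11.85, 11.83, 11.87 and 11.74 without LPS, a difference of 0.34 ± 0.09 (adjusted p = 0.00218), then 13.42, 13.43, 13.44 and 13.23 at 0.5 h (0.60 ± 0.09, 7.11e-07) and 14.81, 14.81, 14.88 and 14.73 at 1 h (0.31 ± 0.09, 0.00403). At 0.5 h its lowest mutant library lay just inside the WT range, and at 1 h none did. *Ccl3* differed by 0.35 ± 0.10 (0.00384), 0.49 ± 0.10 (1.52e-04) and 0.26 ± 0.10 (0.0300) at these times. The *Ccl3* call at 1 h was lost without WT replicate 7, 8 or 9 or mutant replicate 2 or 3, with adjusted p of 0.0566 to 0.115, and with only the compared groups in the fit (0.0993). With the replicate number alone as a fixed block the *Ccl3* differences were 0.14 without LPS (adjusted p = 0.205) and 0.05 at 1 h (0.652), and both calls were lost. At 2 h neither gene was called (-0.04 and 0.08), where the mutant *Ccl4* libraries held 15.37, 15.31, 15.44 and 15.37 and the WT libraries 15.31 to 15.50.

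*Ccl9* moved the other way. It was lower in the mutant without LPS (14.68, 14.71, 14.63 and 14.79; -0.26 ± 0.09, adjusted p = 0.0132), at 1 h (15.69, 15.64, 15.64 and 15.75; -0.36 ± 0.09, 8.05e-04) and at 2 h (16.26, 16.17, 16.31 and 16.17; -0.30 ± 0.10, 0.00905). At 1 h all 4 mutant libraries lay below all 6 WT libraries. The 2 h call was lost without WT replicate 7 (-0.23, adjusted p = 0.0644). *Ccl6* lay 0.24 to 0.33 below WT at the 4 times without passing the test (adjusted p = 0.0929 to 0.256). With the arm and replicate number as a block it was called lower without LPS (-0.32, adjusted p = 0.0237) and at 1 h (-0.33, 0.0225).

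Counted together, 3 members were higher and 1 lower without LPS, 4 higher at 0.5 h, 4 higher and 1 lower at 1 h, and 1 of each at 2 h. These counts stand against 27.2%, 22.4%, 27.2% and 27.7% of all genes higher and 24.6%, 22%, 26.2% and 23.1% lower, so that over 2 in 5 genes tested differed between these arms. The interaction term called no member at any time by limma's test. Among all genes it called 0.0421%, 0.942% and 8.76% with a smaller and 0.0168%, 0.404% and 8.17% with a larger response at 0.5, 1 and 2 h, and 528, 862 and 3446 genes had an unadjusted p under 0.05. The largest was *Ccl4* at 2 h (-0.38, adjusted p = 0.0512). It passed with a trend (0.0482), with median centring (0.0371), with a replicate block (0.00919), without WT replicate 8 (0.00833) and with only the compared groups in the fit (0.0133), where *Ccl3* passed as well (-0.28, adjusted p = 0.00758).

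The 2 genotypes were also compared directly, in tests added after the values above were seen. Without LPS *Ccl4* (0.37) and *Ccl3* (0.25, adjusted p = 0.0456) were higher and *Ccl6* (-0.44) and *Ccl9* (-0.32) lower in *Elk1*-/-*Elk4*-/- cells, against 26.6% and 23.9% of genes. The *Ccl3* and *Ccl6* calls were lost without single replicates (adjusted p up to 0.100 and 0.0713). After 0.5 h *Ccl4* (1.04), *Ccl7* (0.83), *Ccl3* (0.83) and *Ccl2* (0.51) were higher, against 25.8% of genes, and *Ccl6* (-0.40) was lower, against 23.6%. That *Ccl6* call was lost with no filter on low values (adjusted p = 0.0588), without *Map3k8*[D270A] replicate 4 or 5, and without any 1 of the 4 *Elk1*-/-*Elk4*-/- replicates (0.0514 to 0.114). At 1 h *Ccl7* was 1.14, *Ccl2* 0.78, *Ccl3* 0.63 and *Ccl4* 0.55 higher in *Elk1*-/-*Elk4*-/- than in *Map3k8*[D270A] cells, and *Ccl6* was lower (-0.44, adjusted p = 0.0232), 5 members called against 26.1% of genes higher and 25.5% lower. The 1 h *Ccl6* call was lost without *Elk1*-/-*Elk4*-/- replicate 1 or 4 (adjusted p = 0.0646 and 0.0706). At 2 h the first 4 differences were 1.05, 0.64, 0.48 and 0.29, all called, against 26.4% of genes higher, and *Ccl9* differed by 0.01. With a replicate block *Ccl7* without LPS (0.29, adjusted p = 0.0498) and *Ccl6* at 2 h (-0.35, 0.0165) were called too.

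**Figure D3:**
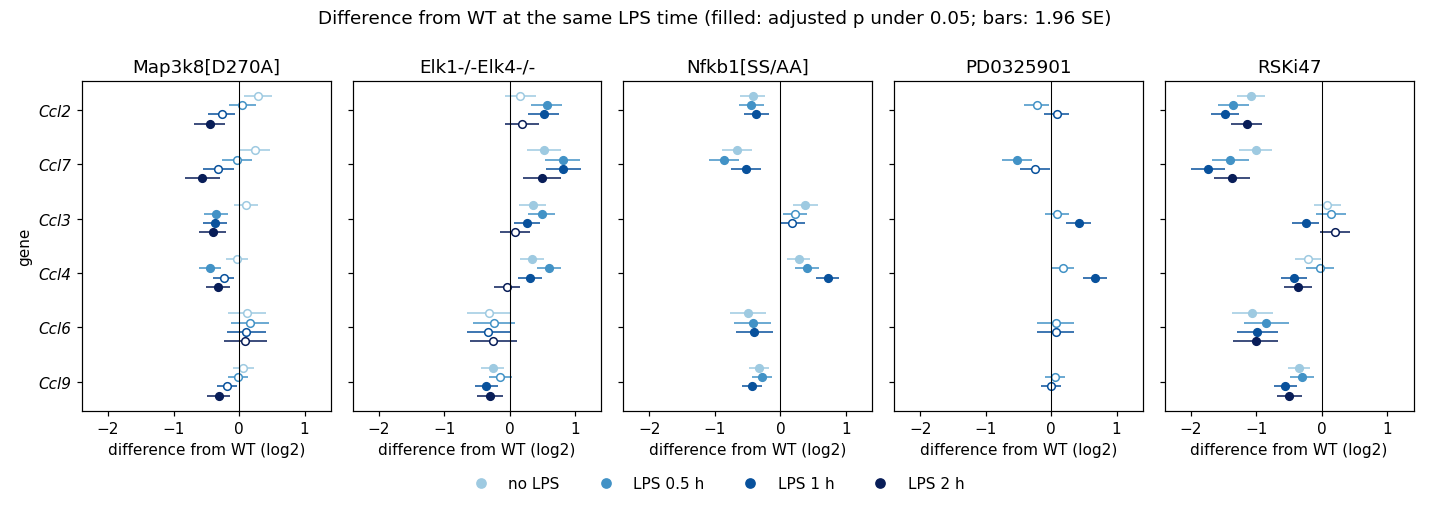
Difference from WT at the same LPS time (x axis, log2) for each gene (y axis), with a panel for each genotype or inhibitor and a colour for each LPS time; filled points have an adjusted p under 0.05 and bars span the 95% interval. *Ccl2* and *Ccl7* lie right of 0 in *Elk1*-/-*Elk4*-/- cells and left of 0 in *Nfkb1*[SS/AA] cells and with RSKi47, where *Ccl7* at 1 h reaches -1.74.

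In *Nfkb1*[SS/AA] cells *Ccl2*, *Ccl7*, *Ccl6* and *Ccl9* were lower than in WT cells at 0, 0.5 and 1 h, *Ccl4* was higher at all 3 times, and *Ccl3* was higher without LPS. Without LPS that is 4 members lower and 2 higher, against 15.1% and 16.9% of the 11971 genes tested. At 0.5 and 1 h it is 4 lower and 1 higher, against 15.6% and 16.7%, and 21.9% and 20.5%.

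*Ccl7* held 9.42 to 9.97 (median 9.73) without LPS, 10.13 to 10.65 (10.44) at 0.5 h and 11.86 to 12.60 (12.45) at 1 h. At every time all 6 *Nfkb1*[SS/AA] libraries lay below all 6 WT libraries. The differences were -0.67 ± 0.12 (adjusted p = 2.37e-06), -0.86 ± 0.12 (2.81e-09) and -0.53 ± 0.12 (1.11e-04).

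*Ccl2* held 10.92 to 11.37 (median 11.29), 11.72 to 12.15 (12.03) and 13.42 to 13.91 (13.79). Only the unstimulated ranges were apart from WT. The differences were -0.43 ± 0.10 (adjusted p = 3.21e-04), -0.44 ± 0.10 (1.77e-04) and -0.37 ± 0.10 (0.00139).

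*Ccl4* held 11.60 to 11.89 (median 11.79), 12.91 to 13.45 (13.15) and 15.04 to 15.33 (15.27). At 1 h every *Nfkb1*[SS/AA] library exceeded every WT library. The difference grew from 0.28 ± 0.09 (adjusted p = 0.0134) and 0.40 ± 0.09 (2.50e-04) to 0.72 ± 0.09 (1.48e-10). *Ccl3* held 11.49 to 11.61 (median 11.54) without LPS, above all WT libraries (0.38 ± 0.10, adjusted p = 9.93e-04), and was not called at 0.5 h (0.22, 0.0669) or 1 h (0.18, 0.115). The 0.5 h difference was called with only the compared groups in the fit (0.0451).

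*Ccl9* was lower by -0.33, -0.28 and -0.43 ± 0.08 (adjusted p = 4.62e-04, 0.00328 and 2.97e-06) and held 15.44 to 15.73 (median 15.63) at 1 h, below all WT libraries. *Ccl6*, at 12.42 to 13.14 (median 12.93) without LPS, was lower by -0.50, -0.42 and -0.40 ± 0.14 (0.00412, 0.0146 and 0.0178), and its ranges overlapped WT at each time. The *Ccl6* calls at 0.5 and 1 h were lost without WT replicate 9 or *Nfkb1*[SS/AA] replicate 4, and at 1 h without WT replicate 7, with adjusted p of 0.0502 to 0.095. With only the compared groups in the fit the *Ccl9* call at 0.5 h (adjusted p = 0.0531) and the *Ccl6* call at 1 h (0.106) were lost. With the replicate number alone as a fixed block the *Ccl6* differences were -0.32, -0.24 and -0.22, and none was called (adjusted p = 0.0517, 0.138 and 0.181).

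Within *Nfkb1*[SS/AA] cells, 5 members rose with LPS at both times (8.55% and 22.5% of genes), *Ccl9* by 0.27 and 0.97, *Ccl4* by 1.42 and 3.45, *Ccl3* by 1.45 and 2.99, *Ccl2* by 0.78 and 2.52 and *Ccl7* by 0.69 and 2.62. The response differed from that of WT cells for *Ccl4* at 1 h alone (0.44 ± 0.13, adjusted p = 0.0200; 1.77% of genes had a larger response). That call was lost without WT replicate 7, 8 or 9 or mutant replicate 2, with adjusted p of 0.0528 to 0.0924. At 0.5 h no member passed, against 0.192% of genes with a larger and 0.117% with a smaller response.

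At 1 h, in a comparison added after the values were seen, *Nfkb1*[SS/AA] cells exceeded *Map3k8*[D270A] cells for *Ccl4* (0.96) and *Ccl3* (0.55) and lay below them for *Ccl6* (-0.51) and *Ccl9* (-0.25), against 22.7% of genes higher and 24.6% lower. *Ccl2* (-0.10) and *Ccl7* (-0.21) were not called.

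Without LPS, *Ccl2*, *Ccl7*, *Ccl3* and *Ccl4* were lower the longer cells had been with PD0325901. After 10 min none of the 6 genes differed from the DMSO libraries, and none of the 11971 genes tested did by limma's test, 245 having an unadjusted p under 0.05. *Ccl2* held 11.64, 11.64 and 11.65 with DMSO, 11.68, 11.64 and 11.60 after 10 min of inhibitor, 11.02, 11.11 and 10.94 after 40 min and 10.30, 10.36 and 10.37 after 70 min. *Ccl7* held 10.15, 10.22 and 10.17 at 10 min, 9.45, 9.52 and 9.48 at 40 min and 8.79, 8.80 and 8.88 at 70 min. For both genes the 3 times did not overlap.

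*Ccl4* fell from 12.09, 12.14 and 12.13 at 10 min through 11.65, 11.64 and 11.58 to 11.29, 11.31 and 11.33, and *Ccl3* from 11.66, 11.71 and 11.66 through 11.20, 11.15 and 11.12 to 11, 11.03 and 11.07. *Ccl6* (13.08, 13.13 and 13.14 at 10 min; 13.07, 13.16 and 13.27 at 70 min) and *Ccl9* (14.88, 14.90 and 14.91; 14.83, 14.90 and 14.98) overlapped. Between 10 and 70 min the differences were -1.36 ± 0.16 for *Ccl7* (adjusted p = 2.86e-10), -1.29 ± 0.14 for *Ccl2* (1.47e-12), -0.81 ± 0.13 for *Ccl4* (1.73e-06) and -0.65 ± 0.14 for *Ccl3* (5.03e-04), 4 of 6 members against 3.47% of genes lower. Those of *Ccl6* and *Ccl9* were 0.05 and 0.01.

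Between 10 and 40 min the same 4 genes fell by 0.70 (*Ccl7*), 0.61 (*Ccl2*), 0.52 (*Ccl3*) and 0.50 (*Ccl4*), with adjusted p of 0.00240 to 0.0127 and against 2.26% of genes lower. These 40 min calls rest on 3 libraries a group: without PD0325901 replicate 1 or 3 no member passed, with adjusted p of 0.0546 to 0.139, and without replicate 2 only *Ccl2* did. No untreated or DMSO libraries at 40 or 70 min were analysed here, so the part of culture time or handling cannot be told apart from that of the inhibitor. The summed neutrophil and myeloid precursor level was 7.34 to 8.11 at 10 min and 8.46 to 8.49 at 70 min, and its part was not tested.

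**Figure D4:**
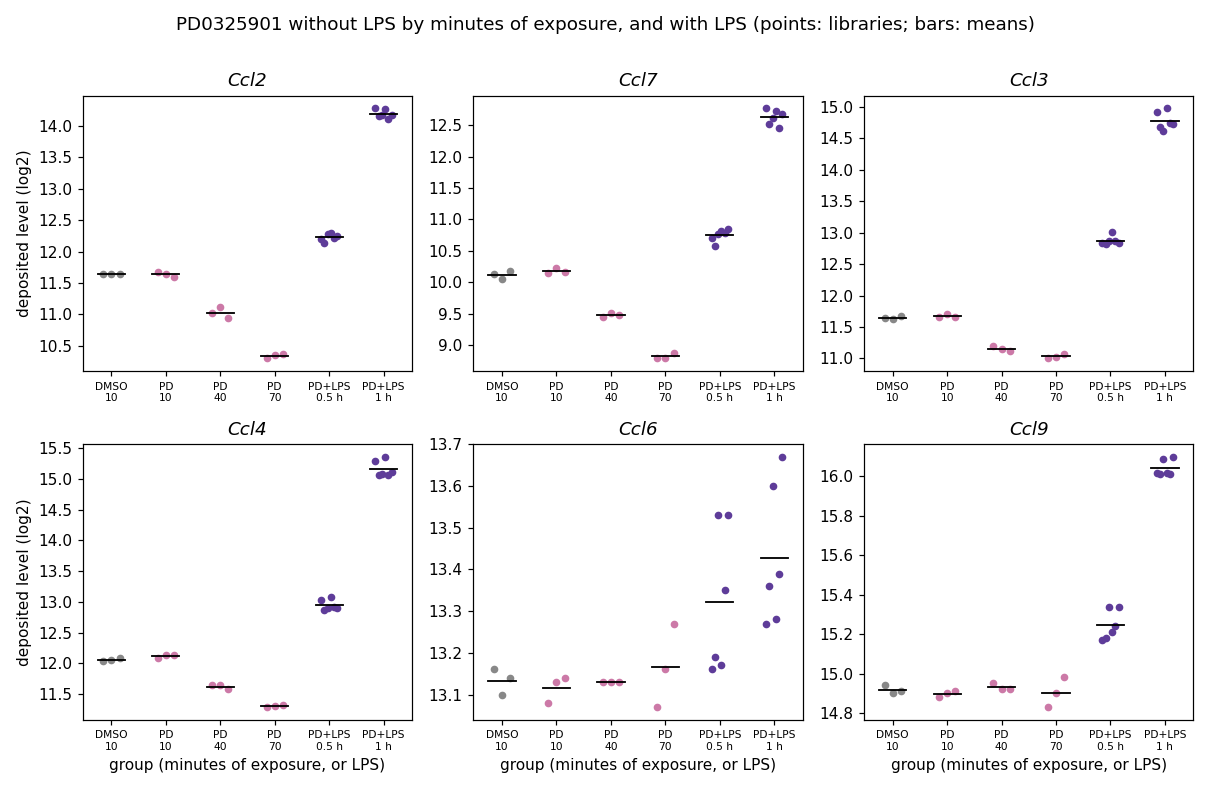
Deposited log2 level (y axis) of each gene in DMSO, in PD0325901 alone by minutes of exposure, and in PD0325901 with LPS (x axis); points are libraries and bars are means. *Ccl2* steps down from 11.60 to 11.68 at 10 min to 10.30 to 10.37 at 70 min without LPS and stands at 14.11 to 14.28 after 1 h of LPS.

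With LPS after PD0325901, *Ccl3* and *Ccl4* were higher than in WT cells at 1 h, and *Ccl7* was lower at 0.5 h. *Ccl4* held 15.07 to 15.36 (median 15.09) and *Ccl3* 14.62 to 14.98 (14.74) at 1 h, both above all 6 WT libraries, with differences of 0.67 (adjusted p = 3.50e-09) and 0.42 (2.88e-04), 2 of 6 members against 16.4% of genes higher. *Ccl2* (14.11 to 14.28; 0.08), *Ccl7* (-0.25, adjusted p = 0.0857), *Ccl6* (0.07) and *Ccl9* (0.00) were not called, though *Ccl7* was with only the compared groups in the fit (0.00778). At 0.5 h *Ccl7* alone was called, at 10.58 to 10.85 (median 10.78) and below all WT libraries (-0.53 ± 0.12, adjusted p = 2.40e-04), 1 of 6 against 15% of genes lower. *Ccl2* was called lower as well without WT replicate 4, 5 or 6 (-0.29 to -0.27, adjusted p = 0.0238 to 0.0351), and *Ccl4* higher without WT replicate 8 (0.27, 0.0179). The summed neutrophil and myeloid precursor level of these PD0325901 libraries was 8.12 to 8.35 at 0.5 h and 8.28 to 8.83 at 1 h, above the WT ranges of 6.33 to 7.28 and 6.47 to 7.78 without overlap, and its part was not tested. The DMSO libraries themselves, without LPS, lay above unstimulated WT cells for *Ccl4* (12.04, 12.05 and 12.09; 0.58 ± 0.11, adjusted p = 4.95e-05) and *Ccl3* (11.64, 11.62 and 11.67; 0.48 ± 0.12, 0.00139), 2 members against 12.5% of genes. Their neutrophil and myeloid precursor sum (7.58 to 8.27) also lay above that of unstimulated WT libraries (6.45 to 7.24), and its part was not tested. The DMSO values, without inhibitor or LPS, lay above WT by amounts of the same order as those with both at 1 h.

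Measured from cells with the same minutes of inhibitor, LPS raised *Ccl2* by 3.85, *Ccl4* by 3.85, *Ccl7* by 3.80, *Ccl3* by 3.75 and *Ccl9* by 1.14 at 1 h, and by 1.21, 1.33, 1.27, 1.71 and 0.32 at 0.5 h, 5 members at each time against 21.9% and 9.38% of genes. The *Ccl9* call at 0.5 h was lost without PD0325901 replicate 2 or 3 (adjusted p = 0.0747 and 0.0765) and with the PD0325901 replicates averaged in pairs (0.059). The 1 h response exceeded that of WT cells for *Ccl2* (1.39 ± 0.15, adjusted p = 8.06e-12), *Ccl7* (1.33 ± 0.18, 3.39e-08), *Ccl4* (0.84 ± 0.14, 1.15e-05) and *Ccl3* (0.56 ± 0.15, 0.0163), 4 members against 1.1% of genes. This result turns on the baseline. From the libraries with 10 min of inhibitor, the same 4 values were 0.09, -0.03, 0.03 and -0.09 (adjusted p = 0.863 to 0.966). The *Ccl3* call was also lost without WT replicate 8 or PD0325901 replicate 1 or 2 (adjusted p = 0.0526 to 0.132). Labels do not say whether the 6 PD0325901 libraries at each LPS time came from 6 cultures. For *Ccl6* at 1 h, replicates 1 and 4 held 13.27 and 13.28, 2 and 5 held 13.36 and 13.39, and 3 and 6 held 13.60 and 13.67. If the libraries came from fewer cultures, the p-values of this arm, those against WT included, rest on too many replicates. With these replicates averaged in pairs the *Ccl3* call was lost too (adjusted p = 0.0579). At 0.5 h no member passed, against 0.727% of genes with a larger and 0.76% with a smaller response, and *Ccl2* was nearest (0.41, adjusted p = 0.236). With a replicate block *Ccl2* was called (0.40, adjusted p = 0.0444).

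RSKi47 went with much lower *Ccl2*, *Ccl7* and *Ccl6*, before and after LPS. Without LPS, after 10 min of inhibitor, 4 of the 6 genes were lower than in untreated WT cells, against 26.3% of genes lower and 26.8% higher. With LPS 4, 6 and 5 members were lower in time order, against 24.5%, 26.3% and 24.6% of genes lower and 23.7%, 26.5% and 27.5% higher. Over 2 in 5 genes tested thus differed between these arms at every time, and the only DMSO libraries analysed here are labelled for PD0325901. A lower level from the inhibitor cannot be told apart from a difference between experiments, which the labels do not name. The fibroblast list stood at 5.82 to 9.44 in the unstimulated RSKi47 libraries and 4.55 to 4.93 in WT libraries, with *Col3a1* and *Dcn* below a linear value of 10 in every library. The fibroblast ranges were also apart at 0.5 h (5.41 to 6.08 and 4.52 to 5.07). They overlapped at 1 h (5.42 to 7.43 and 4.66 to 5.47) and 2 h (6.21 to 6.86 and 5.82 to 6.25). The neutrophil and myeloid precursor list stood at 7.53 to 7.85 in RSKi47 libraries and 6.45 to 7.24 in WT libraries without LPS, and at 7.94 to 8.61 and 6.49 to 7.77 at 2 h, without overlap. Its ranges overlapped at 0.5 and 1 h. The part of either list was not tested.

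*Ccl2* held 10.77, 10.63, 10.61 and 10.23 without LPS, 11.15, 11.10 and 11.04 at 0.5 h, 12.47, 12.85, 12.81 and 12.35 at 1 h, and 13.34, 13.42, 13.39 and 12.96 at 2 h. At each time every RSKi47 library lay below every WT library. The differences were -1.09 ± 0.11 (adjusted p = 1.15e-14), -1.35 ± 0.12 (6.55e-17), -1.49 ± 0.11 (1.23e-21) and -1.15 ± 0.12 (4.55e-14).

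*Ccl7* held 9.66, 9.56, 9.33 and 9.0, then 9.89, 9.95 and 9.81, then 11.22, 11.37, 11.24 and 10.73, and at 2 h 12.51, 12.58, 12.43 and 11.84. Again no library overlapped WT. The differences were -1.01 ± 0.13 (adjusted p = 1.79e-10), -1.40 ± 0.14 (4.97e-14), -1.74 ± 0.13 (3.16e-21) and -1.37 ± 0.14 (4.17e-14).

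*Ccl6* held 12.58, 12.35, 12.50 and 11.80 without LPS and 12.63, 12.43, 12.59 and 11.94 at 2 h. It too lay below all WT libraries at each time, by -1.06 ± 0.16 (adjusted p = 1.70e-08), -0.85 ± 0.17 (2.86e-05), -0.99 ± 0.16 (1.21e-07) and -1.01 ± 0.17 (6.11e-07). *Ccl9* was lower by -0.35, -0.30, -0.56 and -0.49 (adjusted p = 4.43e-04, 0.00608, 6.19e-08 and 7.07e-06), without overlap at any time. The *Ccl9* call at 0.5 h was lost with only the compared groups in the fit (0.0646).

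*Ccl3* and *Ccl4* differed less from WT. *Ccl3* held 11.36, 11.30, 11.35 and 11 without LPS, 12.98, 12.86 and 12.92 at 0.5 h, 13.52, 14.39, 14.56 and 13.98 at 1 h and 15, 15.15, 15.25 and 14.52 at 2 h. It was called at 1 h only (-0.25, adjusted p = 0.0433), a call lost without WT replicate 4, 5 or 6 or RSKi47 replicate 1 or 4, with no filter on low values (0.0609) and with only the compared groups in the fit (0.335). Without RSKi47 replicate 1 the value was -0.05 (adjusted p = 0.719). *Ccl4* was lower at 1 h (13.60, 14.32, 14.43 and 13.92; -0.42 ± 0.10, adjusted p = 2.86e-04) and 2 h (15.12, 15.18, 15.28 and 14.61; -0.36 ± 0.11, 0.00435). The 2 h *Ccl4* call was lost without RSKi47 replicate 4 (-0.22, adjusted p = 0.0913) and with only the compared groups in the fit (0.0559). Leaving out that replicate also raised the 2 h *Ccl3* difference from 0.21 to 0.36 (adjusted p = 0.00823). The lower *Ccl2*, *Ccl7* and *Ccl6* without LPS were -0.98, -0.88 and -0.89 without it.

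The rise with LPS in RSKi47 cells was 2.06 and 2.72 for *Ccl2*, 1.75 and 2.95 for *Ccl7*, 2.86 and 3.73 for *Ccl3*, 2.80 and 3.77 for *Ccl4* and 0.87 and 1.42 for *Ccl9* at 1 and 2 h, 5 members each against 15% and 32.5% of genes. At 0.5 h 4 members rose against 3.39% of genes, *Ccl7* by 0.49, and that call was lost without any 1 of the 4 replicates (adjusted p = 0.0782 to 0.217). With only the compared groups in the fit the 0.5 h rises of *Ccl2* (0.0526) and *Ccl7* (0.128) were not called. The response fell short of that of WT cells for *Ccl7* at 1 h (-0.73 ± 0.18, adjusted p = 0.00562), 1 member against 3.27% of genes with a smaller response. At 0.5 and 2 h none passed, against 0.0251% and 10.4% of genes with a smaller and 0% and 10.6% with a larger response. With a replicate block *Ccl2* at 1 h (-0.40, adjusted p = 0.0188) and *Ccl7* at 2 h (-0.39, 0.0306) were called too.

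**Figure D5:**
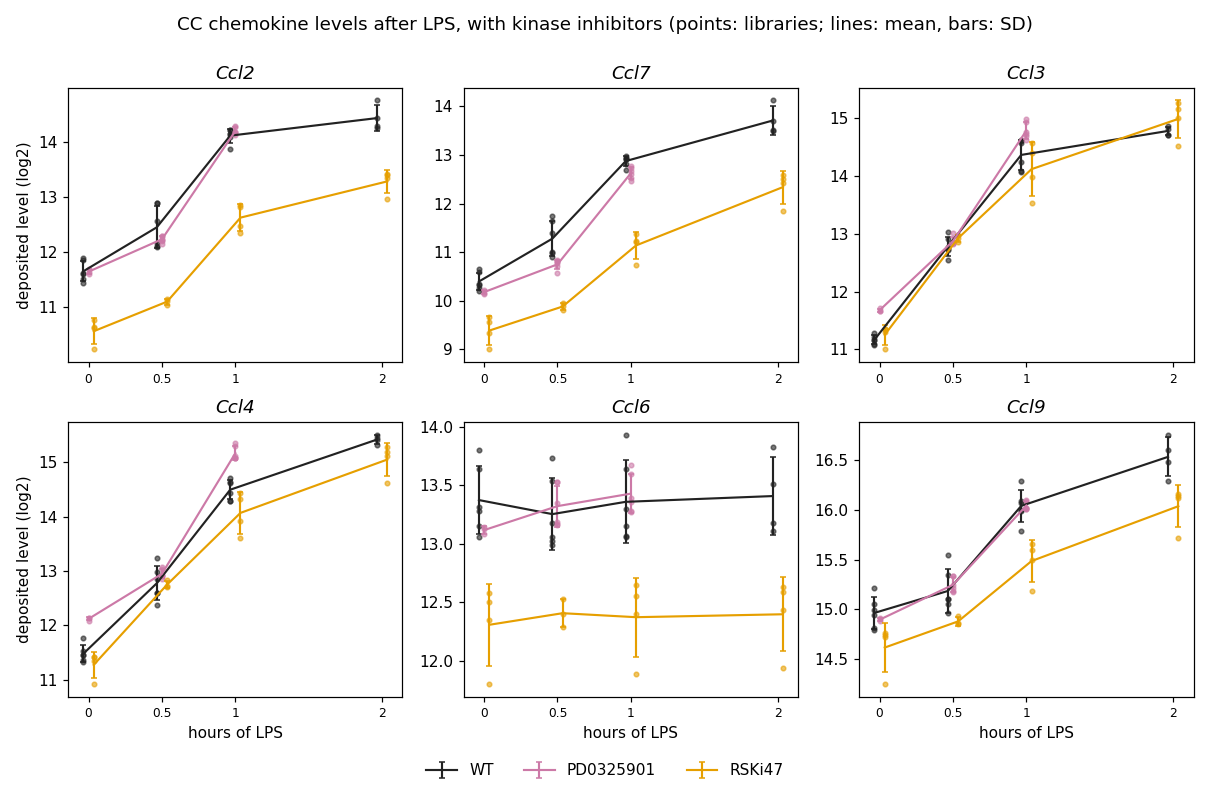
Deposited log2 level (y axis) of each gene against hours of LPS (x axis) in untreated WT cells and in WT cells with PD0325901 (10 min of inhibitor alone at 0 h) or RSKi47; points are libraries, lines join group means and bars are SD. The RSKi47 libraries of *Ccl2* lie at 12.35 to 12.85 at 1 h, below WT at 13.87 to 14.21, while the ranges of *Ccl3* overlap.

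The inhibitors were set side by side at matched minutes of exposure and LPS, in comparisons added after the values were seen. They act on different kinases and were given at 0.1 and 2 µM, and labels do not say whether they were used in 1 experiment. At 1 h all 6 genes were lower with RSKi47 than with PD0325901, by -1.57 for *Ccl2*, -1.49 for *Ccl7*, -1.09 for *Ccl4*, -1.06 for *Ccl6*, -0.67 for *Ccl3* and -0.56 for *Ccl9*, against 25.3% of genes lower. At 0.5 h 4 were lower, *Ccl2* (-1.13), *Ccl6* (-0.92), *Ccl7* (-0.87) and *Ccl9* (-0.37), against 24.4% of genes, and *Ccl3* (0.05) and *Ccl4* (-0.20) were not called. *Ccl4* was called lower with a replicate block (-0.26, adjusted p = 0.0427) and with only the compared groups in the fit (0.00845).

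Across the 25 group means, *Ccl3* and *Ccl4* were most alike in pattern, then *Ccl2* and *Ccl7*. This is a description with no test, in which groups share LPS times and may share experiments. Pearson's r was 0.988 between *Ccl3* and *Ccl4*, 0.985 between *Ccl2* and *Ccl7*, 0.010 to 0.346 between *Ccl6* and any other member, and 0.884 to 0.924 for the remaining pairs. Among all genes tested, those most like *Ccl3* were *Sdc4* (0.988), *Ccl4* and *Ptgs2* (0.979), and those most like *Ccl4* were *Ccl3*, *Slfn2* (0.981) and *Clec4e* (0.973). *Ccl2* was followed by *Ccl7*, *Arl13b* (0.963) and *Tmem171* (0.958), and *Ccl7* by *Ccl2*, *Ythdc1* (0.960) and *Ccl12* (0.958). *Ccl6* was most like *Eno1* (0.960), *Kcnq1* (0.944) and *Emp2* (0.943), and *Ccl9* most like *Map3k6* (0.974) and *Gpr85* (0.973).

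Of 15 other CC chemokine genes listed, 8 passed the filter on low values. In WT cells 1, 5 and 6 of these rose with LPS in time order and none fell, against 7.82%, 23.8% and 34.7% of all genes higher. *Ccl12*, a CCR2 ligand gene near *Ccl7*, rose by 0.97, 2.72 and 3.29. *Ccl5* (RANTES), which lies near *Ccl9*, rose by 2.23 at 1 h and 5.62 at 2 h, and *Ccl8*, next to *Ccl12*, by 0.03 (not called) and 2.02. *Ccl22* rose by 3.18 and 5.87, *Ccl24* by 0.76 and 1.90 and *Ccl17* by 0.24 and 2.74, while *Ccl25* and *Ccl27a* were not called. The 2 h values of *Ccl5* and *Ccl22* are above those of all 6 genes described here.

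Of 15 receptor genes listed, 8 were tested. *Ccr1*, whose product binds CCL3, CCL6 and CCL9, rose in WT cells by 0.50 at 1 h and 0.48 at 2 h. *Ccr2*, whose product binds CCL2 and CCL7, was lower at 2 h (-0.96), as was *Ccr10* (-0.46). *Ccrl2*, an atypical receptor gene, rose by 1.99, 3.20 and 3.10. *Ccr3* and *Ccr7* rose at 1 h (1.12 and 0.25) and 2 h (1.14 and 1.31), so that 4 receptors were higher at 1 h, and 4 higher and 2 lower at 2 h. Of the 11884 genes tested, 23.8% and 34.7% were higher at these times, and 4377 were lower at 2 h.

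Of 34 other genes within 500 kb of a member that have a row, 19 were tested in WT cells, and 1, 4 and 14 rose at 0.5, 1 and 2 h while 1, 1 and 4 fell. Of all 11884 genes 7.82%, 23.8% and 34.7% were higher and 453, 2732 and 4377 genes lower. The neighbours' count of rises was thus near the background at 0.5 and 1 h and above it at 2 h, a difference that was not tested. The neighbours include *Ccl12*, *Ccl5* and *Ccl8*, already counted among the other CC chemokine genes. The largest rise at 1 h was that of *Ccl12* (2.72).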

How the data were processed

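The submitters' processing notes name STAR 2.5.1b, RSEM 1.2.29, DESeq2 1.10.1 and mm10. The deposited table holds normalised log2 values made by the authors for 18098 genes in single-end, strand-specific RNA-seq libraries. The transformation was not named, 24.2% of values are below 0, and the table does not hold the depth of each library. 1 value above 25 was set missing. Groups came from the labels.

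limma 3.58.1 (R 4.3.3) was fitted to WT, *Map3k8*[D270A] and *Elk1*-/-*Elk4*-/- libraries (62; 11884 genes reaching 10 on the linear scale in 4 libraries) and to all libraries (11971 genes, in 3 libraries) for the other arms. p-values were adjusted by Benjamini-Hochberg over all genes of a fit, and a call needs an adjusted p under 0.05. Methods were tested on simulated data. All 6 members passed the filter. Intervals are 95% normal intervals.

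The members, gene lists and tests were chosen with earlier results of these data known; comparisons named as added were chosen after the values were seen. Named genes are the members, the tested genes of the chemokine and receptor lists, *Elk1*, *Elk4*, the 3 genes most like each member, and the largest neighbours at 1 h. Some of these are not reported here. Libraries of 1 replicate number deviated together over genes in 30 of 30 WT and 18 of 18 *Nfkb1*[SS/AA] pairs (correlation over 0.1). The same held for 34 of 36 *Map3k8*[D270A], 20 of 24 *Elk1*-/-*Elk4*-/-, 20 of 21 RSKi47 and 14 of 33 PD0325901 pairs. Changes within a number and replicate blocks are given for these arms too, where the number is a less certain pairing, least certain for PD0325901. Other settings tried were limma with a trend, no filter, median centring, replicate blocks, smaller fits and leaving out each replicate.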

Additional observations from a re-analysis of the deposited data

Results flagged for a closer look

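Of 120 groups of 4 to 6 libraries examined, 10 held a library further from the rest than Dixon's 95% limit, and chance alone gives about 1 in 20. RSKi47 replicate 4 accounts for 4 of them. Without LPS it held *Ccl3* at 11 (others 11.30 to 11.36), *Ccl4* at 10.92 (11.34 to 11.42) and *Ccl9* at 14.25 (14.72 to 14.76), and at 2 h *Ccl9* at 15.72 (16.12 to 16.16). *Map3k8*[D270A] replicate 4 held *Ccl9* at 15.3 without LPS (others 14.88 to 15.02) and 15.46 at 0.5 h (15.03 to 15.16), and replicate 3 held *Ccl3* at 12.58 at 0.5 h (12.34 to 12.43). The remaining 3 were *Ccl2* at 11.72 in *Nfkb1*[SS/AA] replicate 4 at 0.5 h (12.02 to 12.15), *Ccl4* at 13.23 in *Elk1*-/-*Elk4*-/- replicate 4 at 0.5 h (13.42 to 13.44) and *Ccl3* at 13.01 in PD0325901 replicate 4 at 0.5 h of LPS (12.82 to 12.86).

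The LPS response at 1 h differed between PD0325901-treated and WT cells by 1.39 for *Ccl2* (adjusted p = 8.06e-12) and 1.33 for *Ccl7* (3.39e-08) by limma's interaction term when the inhibitor-only libraries of equal exposure were the baseline.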

How the results depend on the processing

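For 44 comparisons the number of members called was recomputed under 734 alternatives in all, and 59 of these counts moved by over 1.5 times; single-gene results kept direction and side of the threshold 5050 times, gained a call 66 times, lost one 132 times and reversed 2 times. With 10 min of PD0325901 as the baseline the interaction count at 1 h went from 4 to 0, *Ccl7* to -0.029 and *Ccl3* to -0.090; the baseline libraries alone differ between these settings. Within WT replicates 4 to 6 and *Map3k8*[D270A] replicates 1 to 3, *Map3k8*[D270A] calls against WT were 1, 0, 4 and 3 (main 0, 2, 1 and 5 at 0, 0.5, 1 and 2 h) and the 1 h interaction count was 4 (main 2). Within WT replicates 7 to 9 and *Map3k8*[D270A] replicates 4 to 6, the 1 h count was 0, and the interaction counts were 2 at 0.5 h (main 0) and 0 at 1 h. Without a filter on low values, *Map3k8*[D270A] calls at 0.5 h were 1 and its 1 h interaction 0. With only the compared groups in the fit, calls were 1 at 0.5 h and 2 at 1 h for *Map3k8*[D270A], 1 at 2 h for *Elk1*-/-*Elk4*-/- (main 2) and 2 for its 2 h interaction (main 0). That interaction count was 1 with a trend and with median centring.

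With a replicate block (arm and number, random), interaction counts went from 0 to 1 for *Map3k8*[D270A] at 0.5 h (*Ccl3*), *Elk1*-/-*Elk4*-/- at 2 h (*Ccl4*, adjusted p = 0.00919), PD0325901 at 0.5 h (*Ccl2*) and RSKi47 at 2 h (*Ccl7*), and from 1 to 2 for RSKi47 at 1 h (*Ccl2*). For *Map3k8*[D270A] this block also added *Ccl7* at 1 h and *Ccl4* at 2 h. With the replicate number alone as a fixed block, *Map3k8*[D270A] calls were 4 without LPS and 3 at 1 h, and *Ccl6* in *Nfkb1*[SS/AA] cells lost its calls (adjusted p = 0.0517, 0.138 and 0.181).

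Leaving out each replicate in turn gave counts of 1 to 2 for *Map3k8*[D270A] at 0.5 h and at 1 h, 1 to 2 for *Elk1*-/-*Elk4*-/- at 2 h, 0 to 3 for the *Map3k8*[D270A] interaction at 1 h, 0 to 1 for the *Elk1*-/-*Elk4*-/- interaction at 2 h and the *Nfkb1*[SS/AA] interaction at 1 h, 2 to 4 for *Elk1*-/-*Elk4*-/- against *Map3k8*[D270A] without LPS (main 4), 1 to 2 for PD0325901 at 0.5 h (main 1) and 0 to 4 for 40 against 10 min of PD0325901 (main 4). Except where named, the cause was not tested.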

Other observations

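The monocyte chemokine genes beside *Ccl2* and *Ccl7* are given for the *Elk1*-/-*Elk4*-/-, RSKi47 and *Map3k8*[D270A] arms. Their differences in the *Nfkb1*[SS/AA] and PD0325901 arms are not reported here. In *Elk1*-/-*Elk4*-/- cells *Ccl8* was higher than in WT cells by 1.33, 1.2, 1.32 and 1.03 at 0, 0.5, 1 and 2 h, and *Ccl12* by 0.66, 0.81, 0.43 and 0.74, all called. In RSKi47 cells *Ccl8* was lower by -0.59, -0.73, -0.52 and -1.95 and *Ccl12* by -0.55, -1.54 and -1.13 at 0.5, 1 and 2 h. In *Map3k8*[D270A] cells neither was called at any time. *Ccl22*, which lies outside the chromosome 11 groups and encodes a CCR4 ligand, was lower at 1 h in *Map3k8*[D270A] (-0.65), *Elk1*-/-*Elk4*-/- (-0.90), *Nfkb1*[SS/AA] (-2.25), PD0325901 (-1.24) and RSKi47 (-1.21) cells, all against the same WT libraries. *Ccl5* was higher at 1 h in *Nfkb1*[SS/AA] (0.83) and PD0325901 (0.76) cells, as was *Ccl4*.

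Receptor genes of these ligands differed between arms too. *Ccr2* was lower than in WT cells at each time measured in *Nfkb1*[SS/AA] (-0.76, -0.68 and -0.82) and RSKi47 cells (-1.14, -1.03, -1.24 and -0.87), the arms in which *Ccl2* and *Ccl7* were also lower at each time. *Ccr1* was lower at 2 h in *Map3k8*[D270A] (-0.67), *Elk1*-/-*Elk4*-/- (-0.65) and RSKi47 (-0.76) cells. No relation between ligand and receptor genes was tested.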
